A study of Mus musculus with 6 samples.

Results

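The genes followed here are 8 markers of smooth muscle cells and pericytes, namely Acta2, Tagln, Cnn1, Myh11, Des, Cspg4, Pdgfrb and Rgs5. They were measured by every probe set that the platform annotation pairs with one of these symbols, which came to 17 of the 45101 probe sets in the table for 8 of the 18194 genes named by a single symbol. A probe set is a group of short oligonucleotides on the array that together give 1 signal for 1 transcript. RNA came from mouse hair follicle bulbs at postnatal day 9 and was hybridised to 6 one-colour arrays. The emN1 bulbs (2 arrays) lacked functional Notch1, being taken from an area of embryonic deletion. The anN1 bulbs (2 arrays) came from skin deleted during anagen, the growth phase of the follicle, and kept functional Notch1. Bulbs of wild-type mice made up the third group (2 arrays), and anN1 and wild-type together served as the 4 controls. The first array set held 1 emN1 and 1 anN1 array and the second held the other 4. The sources used here do not give the strain, the agent that drove the deletion, the deleted part of Notch1 or any pooling of animals. The labels call replicates biological without naming separate animals, so p-values measure only the spread between these samples.

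Smooth muscle cells and pericytes are the mural cells that wrap blood vessels, smooth muscle around larger vessels and pericytes around capillaries. In skin, smooth muscle also forms the arrector pili muscle of the hair, and the connective tissue sheath around the follicle holds contractile cells that express smooth muscle actin. Contractile genes are switched on by serum response factor (Srf) together with myocardin-family coactivators, and Srf binds a DNA element called the CArG box. Pericytes depend on platelet-derived growth factor B from endothelium, which acts on the receptor encoded by Pdgfrb. In tissue of mixed cell types, more cells of a type and more RNA per cell cannot be told apart from the signals.

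Signals are linear, with a median per array between 220 and 263 units. A signal under 112 units, the 95th percentile over 20 probe sets for bacterial spike-in controls, is called under background below. These 20 were chosen by name and assumed to be undetected, without detection calls, and their median signal was 24.35 units. The 6 keratinocyte markers listed, which check the labelled tissue, each had a tested probe set, and Krt5, by its brightest, gave at least 24725 units on every array. Notch1, by its brighter probe set, gave 6498 and 6292 units in emN1, 15077 and 12527 in anN1, and 23750 and 34070 in wild-type, and by its other 821 and 1561, 1581 and 2789, and 2833 and 3720. Thus the anN1 arrays lay below both wild-type arrays in each probe set, and the controls were not uniform in Notch1 although the labels give anN1 functional Notch1. The ratio of the 3′ to the 5′ probe set of beta-actin, a measure of RNA integrity and labelling length, was 4.60 (emN1) and 5.64 (anN1) in the first array set and between 2.39 and 2.71 in the second. For Gapdh the same ratio was 4.795 (emN1) and 6.96 (anN1) in the first array set and between 4.64 and 5.45 in the second. By Gapdh, therefore, only anN1 replicate 1 lay outside the range of the second set. Both array sets hold emN1 and anN1, and the part of these ratios in the results was not tested.

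Acta2, Tagln, Cspg4 and Pdgfrb rose in emN1 bulbs against controls, whereas Rgs5 did not pass the test and Cnn1, Myh11 and Des were too dim for it. Of the 17 probe sets, 7 passed the filter on dim signals (the upper 60% of mean signal), covering Acta2, Tagln, Cspg4, Pdgfrb and Rgs5. Of these 7, 5 rose in emN1 and none fell, by limma with a Benjamini-Hochberg adjusted p under 0.05; among all 27022 probe sets tested, 2.41% rose and 1.37% fell. The median log2 difference was 1.32 over the 7 and -0.01 over all probe sets tested. The dimmer Pdgfrb probe set and that of Rgs5 passed the filter only through their emN1 signals, their control means being under it, so counts and the median over the 7 are a description. The 5 called probe sets would have passed on their controls alone. In limma without a variance that follows signal intensity none of the 7 was called (0 of all 27022 either; 4044 at an unadjusted p under 0.05), although their smallest adjusted p was 0.0521. The number called also fell from 5 to 0 without emN1 replicate 2, and to 3 (Acta2, Tagln and 1 of the 2 Cspg4 probe sets) without emN1 replicate 1 or anN1 replicate 1. All 7 differences stayed above 0 in each case.

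**Figure D1:**
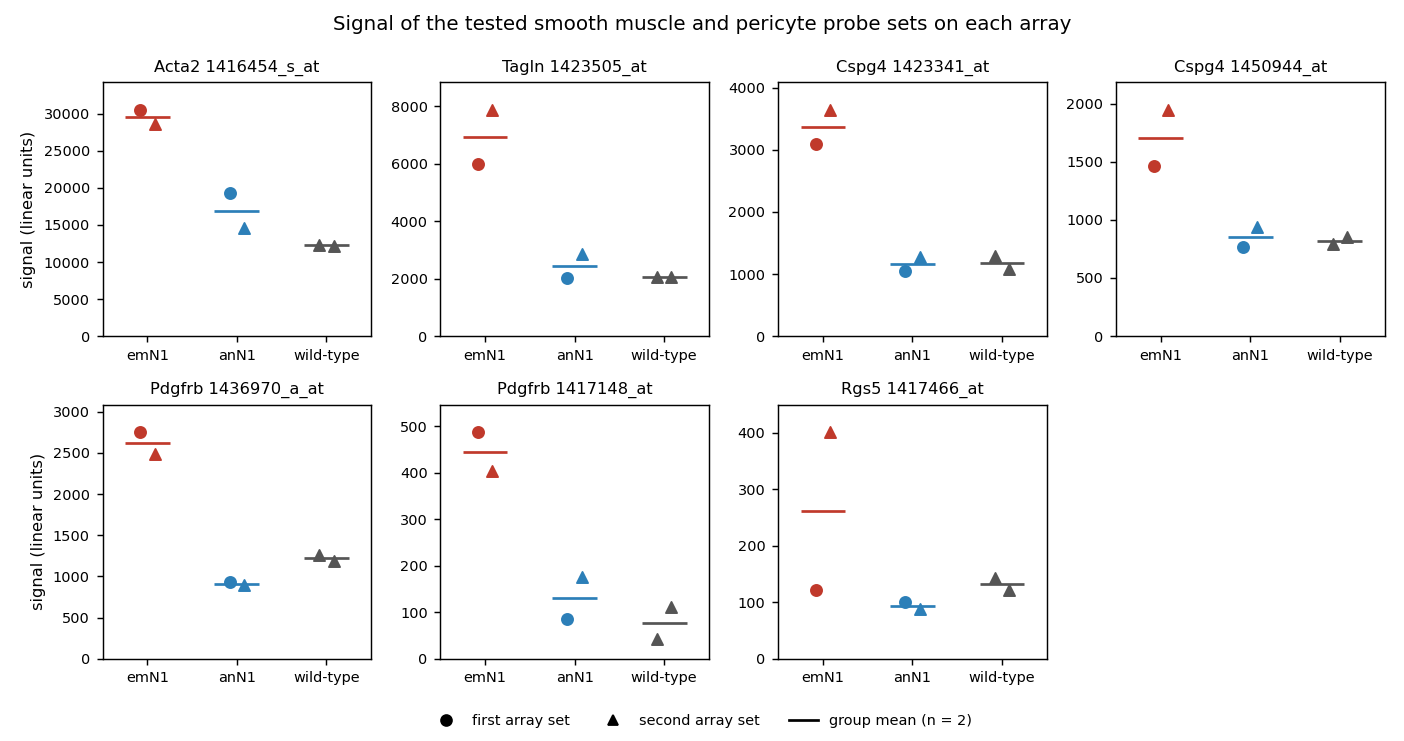
Signal in linear units (vertical axis, from 0) of the 7 tested probe sets in emN1, anN1 and wild-type arrays, with a circle for an array of the first set, a triangle for one of the second and a bar at each group mean (n = 2). Both emN1 points lie above every control point in all panels but that of Rgs5, where 1 emN1 array at 123 units lies among the controls.

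Acta2 encodes smooth muscle alpha-actin, the actin of the contractile filaments in smooth muscle and in contractile sheath cells. Its bright probe set (1416454_s_at) gave 30584 and 28646 units in emN1, 19304 and 14529 in anN1, and 12323 and 12210 in wild-type. Both emN1 arrays were the highest, both anN1 arrays came next, and the wild-type arrays were lowest and close together. Acta2 rose by 0.95 log2 units against controls (SE 0.13; limma adjusted p = 0.00784). This was a fold of 1.93, the smallest among the 5 called probe sets. Against anN1 alone it rose by 0.82 (SE 0.11; limma adjusted p = 0.0176) and against wild-type alone by 1.14 (SE 0.13; limma adjusted p = 0.00750). These 2 comparisons share the emN1 arrays. The step from wild-type to anN1, 0.32 log2 units (SE 0.13), did not pass limma (adjusted p = 0.999; 0.0369 unadjusted), and its 95% interval ran from 0.03 to 0.62. Within an array set, the emN1 signal was 1.58 times that of anN1 in the first and 1.97 times in the second. The call was lost without the array set as a term (limma adjusted p = 0.0620).

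The name of this probe set ends in s_at, which on this platform marks oligonucleotides that can match several related transcripts, so signal from a close actin relative cannot be separated from it. The enteric smooth muscle actin Actg2, named after its value was seen, gave 1689 and 2456 units in emN1 and 414 to 1029 in the controls, a difference of 1.55 log2 units (SE 0.36) that did not pass limma (adjusted p = 0.0560). The other Acta2 probe sets were dim. One (1444105_at) gave 115 and 170 units in emN1 against 21.0, 114, 101 and 46.3 in the controls, and the other (1456658_at) gave 30.9 and 17.4 against 5.78, 137, 85.2 and 36.8. With 3 of 4 control signals under background in both, and both emN1 signals under it in the second, no direction was drawn from them.

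The promoter of Acta2 is shown because its CArG elements are the textbook site through which Srf acts on contractile genes, and that of Myl9 because it is another contractile gene that rose and has such elements. Both are from RefSeq on GRCm38.p6, the 170 bases before the annotated start, chr19:34255374-34255543 on the minus strand for Acta2 and chr2:156775294-156775463 on the plus strand for Myl9. Capitals mark CArG elements, here the 10-base CArG box or a version of it with 1 G or C in its A and T centre. The element reads alike on both strands.
Acta2: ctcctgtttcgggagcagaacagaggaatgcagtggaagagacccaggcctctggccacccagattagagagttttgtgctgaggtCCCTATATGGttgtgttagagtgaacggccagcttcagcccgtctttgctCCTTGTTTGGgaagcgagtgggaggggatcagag
Myl9: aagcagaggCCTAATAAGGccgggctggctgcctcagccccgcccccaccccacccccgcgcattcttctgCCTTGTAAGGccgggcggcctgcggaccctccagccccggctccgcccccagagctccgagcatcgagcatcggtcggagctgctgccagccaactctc

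In Acta2 the elements began 84 and 34 bases before the start, and each had 1 G or C in its centre. In Myl9 they began 161 and 99 bases before it. Of all 32851 promoter windows of 250 bases in the table, 8.59% held at least 1 such element and 0.67% held 2 or more. RefSeq windows were used for 5 of the 8 genes, Acta2, Cnn1, Des, Cspg4 and Rgs5, and only that of Acta2 held the letters. Windows on 1 chromosome were left out of the counts by gene but not of the share by window. A gene with several windows was counted by the one with most elements. Among 16 contractile genes of the list given further on, 4 held at least 1, namely Myl9, Synm, Mrtfa and Srf. The windows of Tpm2, Cald1, Mylk and Smtn, the other genes of that list that rose, held none. A match is a description of the letters, and nothing about Srf follows from it in these samples.

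Tagln encodes transgelin, an actin-binding protein of smooth muscle also called SM22. Its only probe set (1423505_at) gave 5986 and 7882 units in emN1, 2013 and 2847 in anN1, and 2067 and 2041 in wild-type. Its lower emN1 signal was 2.10 times the highest control, and 3 of the 4 controls lay between 2013 and 2067. Tagln rose by 1.69 log2 units (SE 0.17; limma adjusted p = 0.00296), or 3.23-fold, the largest change among the 5 called. It rose by 1.51 against anN1 (SE 0.14; limma adjusted p = 0.00579) and by 1.96 against wild-type (SE 0.16; limma adjusted p = 0.00252). The emN1 signal was 2.97 times that of anN1 in the first array set and 2.77 times in the second. Between anN1 and wild-type the difference was 0.44 (SE 0.16), which did not pass limma (adjusted p = 0.999; 0.0261 unadjusted).

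Cnn1, Myh11 and Des, which mark more mature contractile cells, had no probe set above the filter. Cnn1 encodes calponin, which binds actin and restrains the myosin motor of smooth muscle. It gave 247 and 253 units in emN1, 59.998 and 33.1 in anN1, and 24.4 and 37.1 in wild-type. All 4 control signals were under background and both emN1 signals above it, so Cnn1 was at least 2.24-fold higher in emN1, taking the background limit as the lowest signal that can be measured. Without the filter, limma gave 2.19 log2 units (SE 0.53) and an adjusted p of 0.0905 over 45037 probe sets, so the difference did not pass. The filter uses the mean over 6 arrays, and that of Cnn1, which was above background in the 2 emN1 arrays alone, was too low to pass.

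Myh11 encodes the myosin heavy chain of smooth muscle, the most specific marker of the mature cell. One probe set (1448962_at) gave 41.0 and 227 units in emN1 against 6.39, 30.8, 60.7 and 13.7 in the controls, so that 1 array of 6 was above background. The other (1418122_at) gave 23.2 and 64.9 in emN1 and 131, 72.6, 23.8 and 39.1 in the controls, again with 1 array above it. Its highest array was anN1 replicate 1, not an emN1 array. Myh11 was therefore above background on 1 emN1 array by the first and 1 anN1 array by the second, and no direction was drawn from it.

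Des encodes desmin, the intermediate filament of all muscle and of many pericytes. The brighter probe set (1426732_at) gave 284 and 174 units in emN1, 35.2 and 125 in anN1, and 96.8 and 151 in wild-type, both emN1 signals being above the controls by a narrow margin. The other (1426731_at) gave 109 and 157 in emN1 and 111, 26.1, 82.6 and 45.9 in the controls, with the groups overlapping. Without the filter neither passed limma (adjusted p = 0.425 and 0.661).

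Cspg4 encodes the surface proteoglycan NG2, used to mark pericytes and also carried by smooth muscle and some progenitor cells. Its brighter probe set (1423341_at) gave 3087 and 3650 units in emN1, 1044 and 1268 in anN1, and 1294 and 1074 in wild-type. All 4 controls lay close together, with a mean of 1170 ± 129 (SD, n = 4), and the lower emN1 signal was 2.39 times the highest of them. Cspg4 rose by 1.57 log2 units (SE 0.16; limma adjusted p = 0.00296), or 2.97-fold. It rose by nearly the same amount against each control alone, 1.53 against anN1 (SE 0.19; limma adjusted p = 0.0130) and 1.62 against wild-type (SE 0.21; limma adjusted p = 0.0138). Within array sets it was 2.96 and 2.88 times the anN1 signal. Between anN1 and wild-type the difference was 0.09, with a 95% interval from -0.40 to 0.59.

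The second Cspg4 probe set (1450944_at) also had both emN1 arrays above all 4 controls, though the order among the controls differed. It gave 1468 and 1950 units in emN1, 765 and 939 in anN1, and 790 and 854 in wild-type, and rose by 1.07 (SE 0.18; limma adjusted p = 0.0180). Against anN1 or wild-type alone it did not pass limma (adjusted p = 0.0771 and 0.0564). Without the array set as a term it did not pass against the controls either (limma adjusted p = 0.0876).

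Pdgfrb encodes the receptor through which platelet-derived growth factor recruits and maintains mural cells, and fibroblasts express it too. The brighter probe set (1436970_a_at) gave 2749 and 2490 units in emN1, 932 and 895 in anN1, and 1259 and 1182 in wild-type. It rose by 1.32 log2 units against controls (SE 0.20; limma adjusted p = 0.0116), or 2.49-fold. Unlike Acta2 and Tagln, this probe set was lower in anN1 than in wild-type, by 0.46 (SE 0.21), a step that did not pass limma (adjusted p = 0.999; 0.0630 unadjusted). Accordingly its rise was 1.5 against anN1 (SE 0.19; limma adjusted p = 0.0133), while the 1.04 against wild-type (SE 0.21) did not pass (limma adjusted p = 0.0606). Within array sets emN1 was 2.95 and 2.78 times anN1.

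The dimmer Pdgfrb probe set (1417148_at) gave 487 and 404 units in emN1, 86.1 and 176 in anN1, and 41.9 and 111 in wild-type. Of the 4 control signals 3 were under background, and the difference of 2.04 (SE 0.53) did not pass limma (adjusted p = 0.0849). With signals raised to the background limit before the log it was 1.83 and passed (limma adjusted p = 0.0261). Between anN1 and wild-type this probe set differed by 0.85 (SE 0.65), opposite in sign to the brighter one, and did not pass (limma adjusted p = 0.999).

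Rgs5 encodes a regulator of G protein signalling that is a classic marker of capillary pericytes. Its brightest probe set (1417466_at) gave 123 and 401 units in emN1, 100 and 88.1 in anN1, and 142 and 122 in wild-type. Only emN1 replicate 2 stood above the controls, and the groups overlapped. The difference of 1.09 (SE 0.48) did not pass limma (adjusted p = 0.303), with a 95% interval from -0.0017 to 2.18, and without emN1 replicate 2 it was 0.25. The other 3 probe sets were dim. Of their signals on the 6 arrays, 1 probe set had none above background and the others had 1 each, and 2 of the 3 were lower on average in emN1. Whether Rgs5 differed from Cspg4 and Pdgfrb in its response was not tested.

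**Figure D2:**
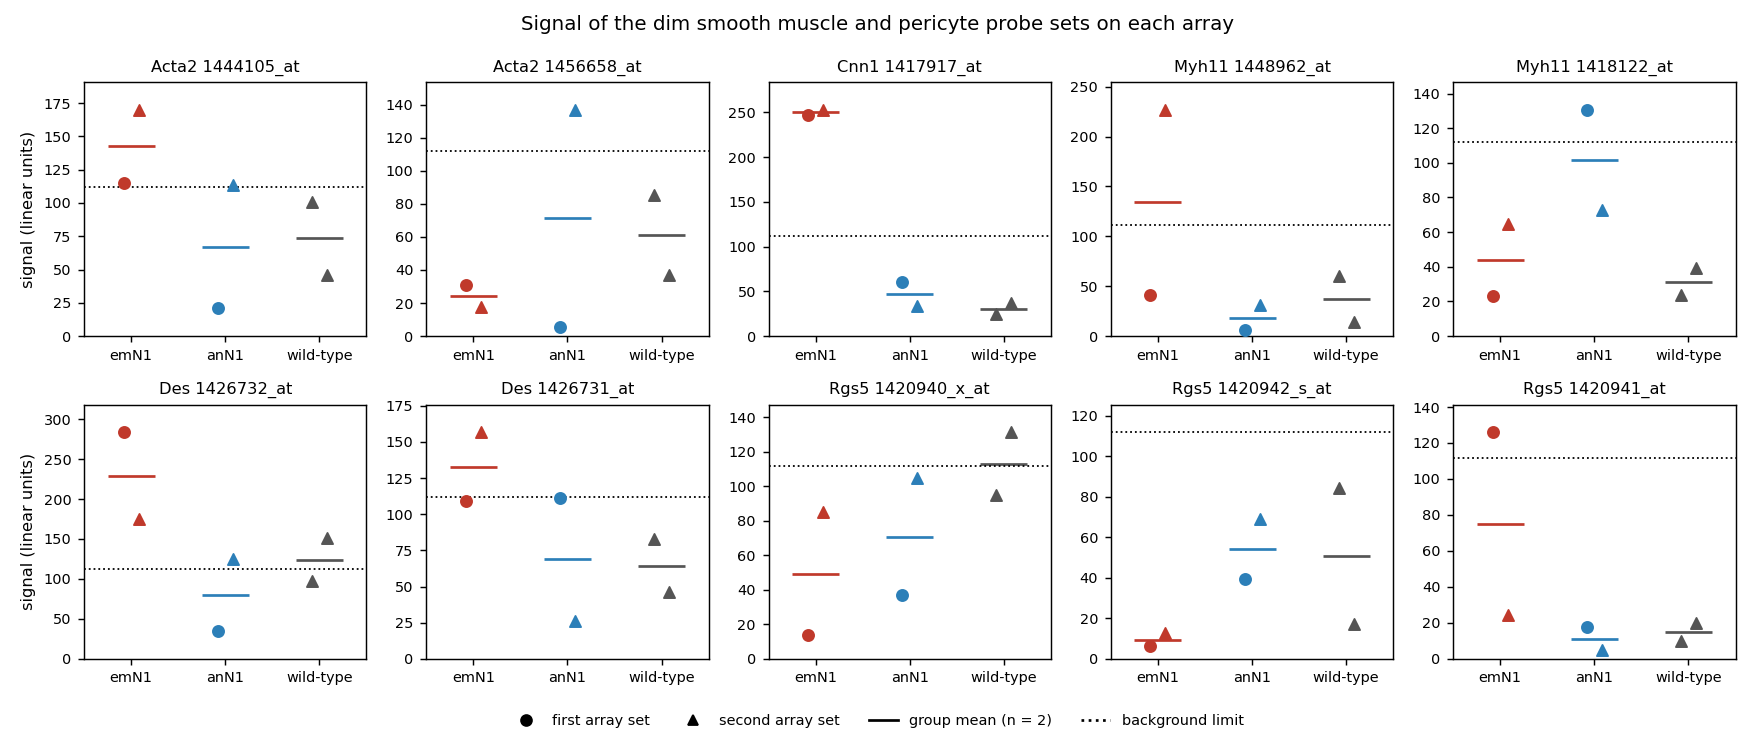
Signal in linear units (vertical axis, from 0) of the 10 probe sets under the filter, by group, with circles for the first array set, triangles for the second, bars at group means (n = 2) and a dotted line at the background limit of 112 units. Of the 60 points 45 lie under the line, and Cnn1 is the panel in which both emN1 points lie above it and all 4 controls under it.

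Over all 17 probe sets, both emN1 signals lay above every control in 10, against 9.28% of all 45037 probe sets without the filter, and 4 of these 10 were dim. Among these was Rgs5 probe set 1420941_at, whose lower emN1 signal of 24.2 units was under background. In another Rgs5 probe set (1420942_s_at) both emN1 signals lay below every control, with all 6 arrays under background. The share of all probe sets in that direction was not counted. Of the 10 dim probe sets, 6 had a higher and 4 a lower mean log2 signal in emN1 than in controls.

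**Figure D3:**
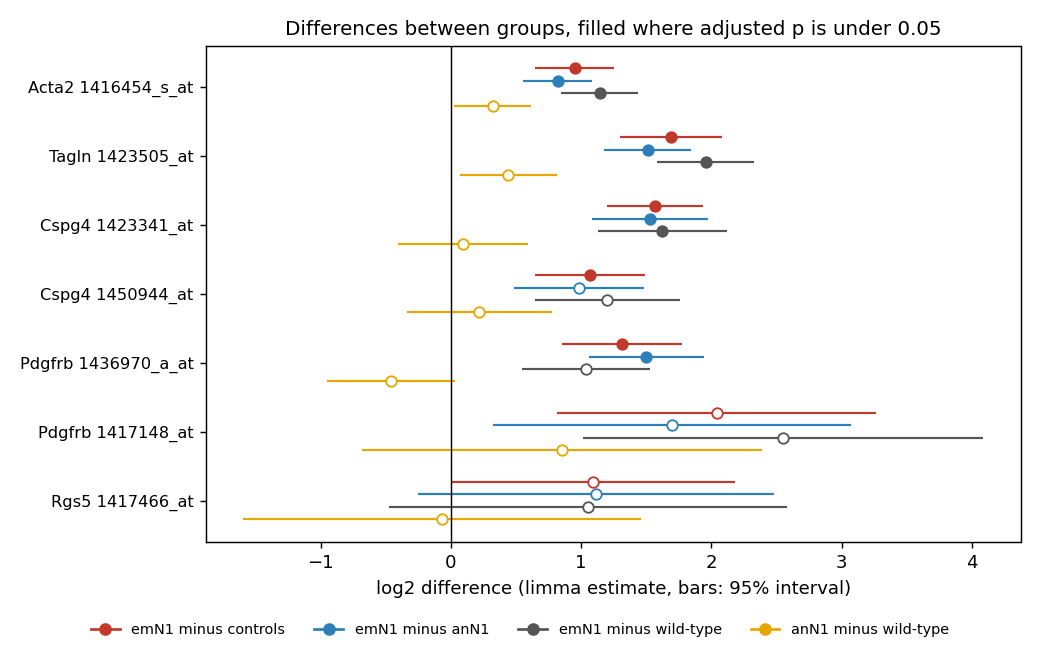
Log2 difference (horizontal axis) of each tested probe set in 4 comparisons, with points at the limma estimate, bars for its 95% interval and filled points where the adjusted p was under 0.05. Values for emN1 lie above 0 against either control, and no point for anN1 minus wild-type is filled.

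Set against anN1 alone, 4 of the 7 tested probe sets rose (Acta2, Tagln, and the brighter ones of Cspg4 and Pdgfrb), where 1.35% of all probe sets rose and 0.662% fell. Against wild-type alone, 3 rose (Acta2, Tagln and the brighter one of Cspg4), where 1.53% of all rose and 0.629% fell. Between anN1 and wild-type none of the 7 was called in limma, where 0.074% of all were called in either direction; 2 of the 7, Acta2 and Tagln, had an unadjusted p under 0.05. All 3 comparisons come from 1 fit with 2 residual degrees of freedom. Without either emN1 or either anN1 array, the counts for both emN1 comparisons were 0, and without either wild-type array both were 5. Without the array set as a term, the count against anN1 was 0 and that against wild-type 3.

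Across the 6 arrays the bright members followed one another. The log2 signals of Tagln and the brighter Cspg4 probe set had a Pearson correlation of 0.98, Cspg4 and the brighter Pdgfrb probe set of 0.95, and Acta2 and Tagln of 0.87. The correlation of Rgs5 with the others ran from 0.42 to 0.76. Its upper end lay close to the 0.77 between the 2 Pdgfrb probe sets and the 0.80 between Acta2 and the brighter of these. These are descriptions over 6 arrays that share the same groups and array sets. The gene most like Acta2 over the 6 arrays was Bicdl2 (r = 0.998), followed by Cnksr3 (0.998) and Ptprb (0.997), a phosphatase of endothelium. For Tagln they were Slc66a2 (0.995), the ion cotransporter Slc12a2 (0.994) and 2310011E23Rik (0.994). For Cspg4 they were the adhesion molecule Icam1 (0.994), Fez2 (0.994) and the growth factor binding protein Igfbp3 (0.994), and for Pdgfrb Sfxn3 (0.995), Tmem204 (0.993) and Cmpk2 (0.989). They were ranked among 12606 genes.

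The wider contractile programme rose in part. Of 19 further smooth muscle genes listed, 15 had a probe set above the filter, and 5 of these rose and none fell, where 3.59% of all 12611 genes rose and 1.84% fell, each gene being taken by its brightest probe set. Tpm2, a tropomyosin that lies along the actin filament, rose by 1.33 log2 units (SE 0.20), and of its 3 other tested probe sets 2 rose and 1, at -0.23, did not pass. Cald1, the actin-binding regulator caldesmon, rose by 1.22 (SE 0.13), although its 3 other tested probe sets did not pass. Myl9, the regulatory light chain of smooth muscle myosin, rose by 1.04 (SE 0.19) and Mylk, the kinase that phosphorylates it, by 0.88 (SE 0.17). The other tested Mylk probe sets, at 0.82 and 0.72, did not pass. The fifth was smoothelin, Smtn, at 0.82 (SE 0.18), named after its value was seen. The list's median was 0.59, against -0.02 over all genes. The count fell to 2 without the array set as a term, and to 0 without emN1 replicate 1, emN1 replicate 2 or anN1 replicate 1.

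The regulators in that list did not pass. Srf differed by -0.17 (SE 0.17), its coactivator genes Mrtfa and Mrtfb by -0.38 (SE 0.17) and -0.05 (SE 0.12) (limma adjusted p = 0.706, 0.303 and 0.887). These were named after their values were seen. Myocd, the coactivator restricted to muscle, and Lmod1, an actin nucleator of smooth muscle, were under background on all 6 arrays. The summed signal of the list, by brightest probe sets, was 69978 and 70027 in emN1 and from 41935 to 48448 in the controls.

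Mural cell and pericyte genes beyond the 8 gave 1 call in each direction. Of 19 listed, 9 were tested, 1 rose (3.59% of all genes) and 1 fell (1.84% of all genes), with a median of 0.14. Tbx18, a transcription factor of mural cells that is also made in follicle mesenchyme, rose by 1.18 (SE 0.20; limma adjusted p = 0.0171). Heyl, a Notch target expressed in mural cells, fell by 0.87 in its brightest probe set (SE 0.19; limma adjusted p = 0.0472). Smaller differences of -0.43 and -0.32 came from its dimmer tested probe sets, and limma called neither (adjusted p = 0.497 and 0.638). Kcnj8, a potassium channel subunit of pericytes, was under background on all 6 arrays. The summed signal of this list overlapped between groups, at 9763 and 10373 in emN1 and from 9258 to 12280 in the controls. Heyl and the receptor gene Notch3, chosen here after their values were seen, made up much of it. Without them the sum was 5057 and 4934 in emN1 and 2563 to 3263 in the controls. Both were lower in emN1 (Notch3 by 0.32, SE 0.16, not past the threshold), so leaving them out favours emN1 by construction. No conclusion was drawn from the reduced sum. Neither call was present without emN1 replicate 1, emN1 replicate 2 or anN1 replicate 1, or without the array set as a term, and Heyl was not called without wild-type replicate 1, with an addend of 1 or without the filter on dim signals.

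Among the ligands and the other receptor of the platelet-derived growth factor family, 4 of 5 were tested and none passed limma (3 had an unadjusted p under 0.05), with 4 of 4 above 0 and a median of 0.83. Pdgfb, the ligand made by endothelium, differed by 1.68 (SE 0.38; limma adjusted p = 0.0520), and its signals were 306 and 672 in emN1 and 44.2, 334, 275 and 242 in the controls. The groups overlapped, and its second probe set differed by -0.05. Pdgfc differed by 1.24 (SE 0.30; limma adjusted p = 0.0682).

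Most paralogs of the members, many of them expressed in many cell types, did not pass. Of 15 tested among 18 listed, 2 rose (3.59% of all genes), none fell (1.84% of all genes) and the median was 0.10. Cytoplasmic actins Actb and Actg1 differed by 0.09 (SE 0.07) and 0.04 (SE 0.07), the transgelin paralog Tagln2 by 0.22 (SE 0.11), the calponin paralogs Cnn2 and Cnn3 by 0.30 (SE 0.16) and 0.10 (SE 0.09), and the non-muscle myosin Myh9 by 0.10 (SE 0.11), none past the threshold and all named after their values were seen. The 2 that rose were Rgs2, a relative of Rgs5 that dampens signalling of vasoconstrictor receptors, by 2.06 (SE 0.14), and vimentin, Vim, the intermediate filament of mesenchymal cells, by 0.79 (SE 0.10). Rgs2 gave 7000 and 7769 units in emN1 and 1492, 2180, 1917 and 1865 in the controls, with 3 of 3 tested probe sets past the threshold. The count was 3 without any 1 of anN1 replicate 2 and the wild-type arrays, 1 without emN1 replicate 1 or anN1 replicate 1, and 0 without emN1 replicate 2.

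Markers of other cells that the bulbs could hold were counted the same way, where 3.59% of all genes rose and 1.84% fell. Of 10 fibroblast markers, all tested, 5 rose, with a median of 1.09 and a summed signal of 113027 and 139597 in emN1 against 68890 to 92911 in the controls. Postn, Thy1, Col1a2 and Lum rose by 1.75 (SE 0.29), 1.51 (SE 0.16), 1.40 (SE 0.24) and 1.38 (SE 0.23), and Col3a1, named after its value was seen, by 0.87 (SE 0.13). Of all 10, 8 lay above 0, while Dcn and Fbln1, also named after their values were seen, were at -0.002 and -0.04. Pdgfrb, Acta2 and Tagln are also expressed by fibroblasts and sheath cells, and the part of fibroblasts in their rise was not tested. Of 7 tested macrophage markers, 3 rose, Csf1r, Ctss and Mrc1, by 2.72 (SE 0.24), 2.71 (SE 0.36) and 2.42 (SE 0.36), the list's median being 2.42 and its summed signal 6638 and 8288 against 1304 to 1811. C1qb, with 234, 148, 20.5 and 215 units in the controls, passed the filter only through its emN1 signals, so this median is a description. Of the other tested Csf1r probe sets, 1 passed at 2.13 and 1, at 0.13, did not (limma adjusted p = 0.0116 and 0.891). Of 6 keratinocyte markers 3 rose, Krt15, Krt14 and Krt5, by 1.77 (SE 0.15), 1.15 (SE 0.11) and 0.65 (SE 0.08), with a median of 0.68 and a summed signal of 147521 and 162304 against 90422 to 116530. Itgb4, Trp63 and Cdh1, named after their values were seen, differed by 0.72 (SE 0.18), 0.14 (SE 0.08) and -0.15 (SE 0.10) and did not pass. The dimmer tested Krt14 probe sets gave 1.52, which passed, and 0.14, which did not (limma adjusted p = 0.00224 and 0.928). The part of these lists in the rise of the members was not tested. Without emN1 replicate 2 all 3 of these counts were 0. Without emN1 replicate 1 and without anN1 replicate 1, the fibroblast counts were 0 and 1, and the macrophage and keratinocyte counts were 2 each.

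Of 12 endothelial markers listed, 6 were tested and none was called in limma (1 had an unadjusted p under 0.05), with a median of 0.40. Eng differed by 0.66 (SE 0.26) and Tek by -0.73 (SE 0.33). Kdr, like C1qb above, passed the filter only through its emN1 signals, so the median is a description. Pecam1 and Tie1 were under background on all 6 arrays, and the summed signal was 3099 and 3416 in emN1 and 2533 to 3154 in the controls. Ptprb, the endothelial phosphatase outside this list that was named for its likeness to Acta2, rose by 1.63 (limma adjusted p = 0.0348). It was chosen for following Acta2 over these same arrays, so its rise is not a separate result and no conclusion was drawn from it. The part of endothelial cells in the rise of the members was not tested. Of 14 skeletal muscle markers, 4 were tested and none passed (1 had an unadjusted p under 0.05), with a median of 0.40. Ryr1 differed by 1.18 (SE 0.33) and Actn3 by 0.53 (SE 0.31), Myh2, Tnnc2, Myl1 and Tnnt3 were under background on all 6 arrays, and the summed signal was 3355 and 3407 against 2385 to 2662.

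Of 7 tested dermal papilla markers, 1 rose (3.59% of all genes) and 1 fell (1.84% of all genes). The proteoglycan Vcan rose by 0.77 (SE 0.17) and the Wnt agonist Rspo3 fell by 1.30 (SE 0.20). The list had a median of 0.06 and a summed signal of 23369 and 26102 in emN1, within the 21666 to 28516 of the controls. Of 5 tested Schwann cell and melanocyte markers, none rose and 3 fell (1.84% of all genes), with a median of -1.27. Sox10 fell by 2.27 (SE 0.32), Tyrp1 by 1.51 (SE 0.12) and Dct by 1.27 (SE 0.10). The other tested Sox10 probe set, at -0.68, did not pass. The summed signal of this list was 54644 and 67615 in emN1 and 119622 to 171268 in the controls, most of it from Dct and Tyrp1, and its part in the values of Cspg4 was not tested. Without emN1 replicate 1, emN1 replicate 2 or anN1 replicate 1, neither dermal papilla gene was called, and without any 1 of the other 3 arrays only Rspo3 was. Vcan was also not called with an addend of 1, without the filter or with each array centred on its median. The Schwann cell and melanocyte count was 0 without emN1 replicate 2 and 2 without emN1 replicate 1 or anN1 replicate 1.

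**Figure D4:**
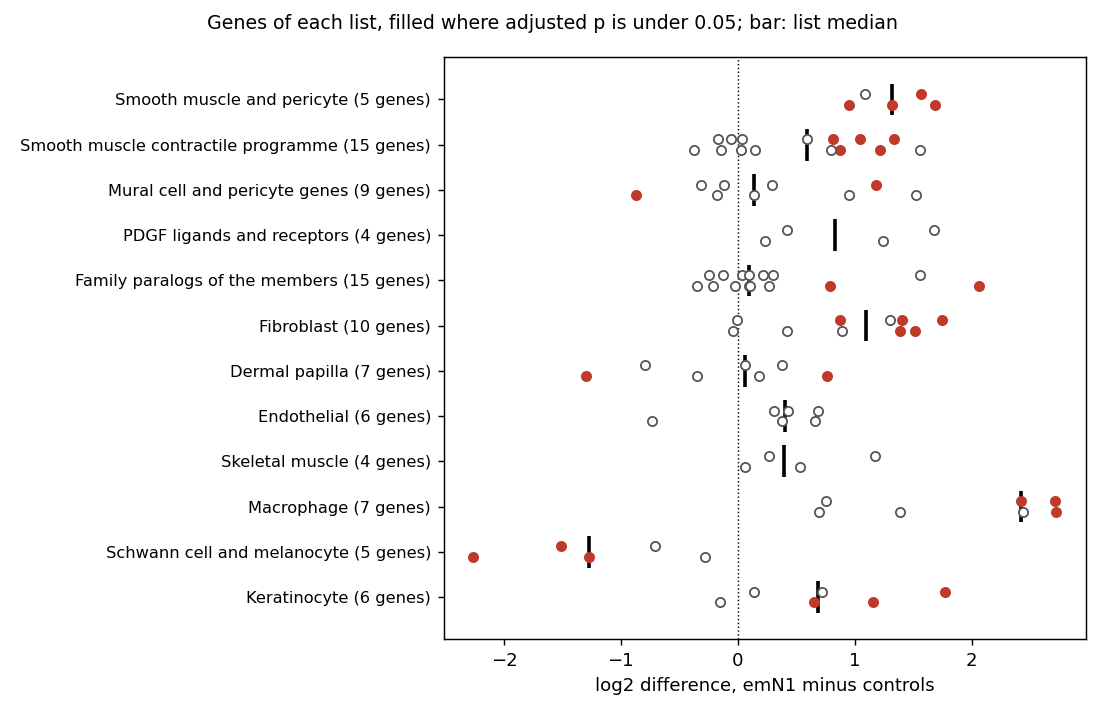
Log2 difference between emN1 and controls (horizontal axis) of each tested gene in 12 lists, filled where the limma adjusted p was under 0.05, with a bar at each list's median. The 5 tested members lie between 0.95 and 1.69, while the endothelial, skeletal muscle and platelet-derived growth factor lists hold no filled point.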

How the data were processed

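Expression was measured on 6 one-colour arrays of mouse hair follicle bulb RNA, grouped by sample title. Each deposited value is the linear intensity of 1 probe set. The submitters' processing notes name MAS5, without version or settings. The trimmed mean (2nd to 98th percentile) was 1500 units on every array. Centring and detection calls are unknown, and precision is limited by the number of arrays.

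Tests ran on log2(signal + 17.8), where 17.8 is the table's 10th percentile, a scale that understates changes of dim genes. The 64 control probe sets were left out, and the upper 60% by mean log2 signal (27022) were tested with limma 3.58.1 in R 4.3.3 (lmFit, eBayes with an intensity trend, two-sided, Benjamini-Hochberg over all 27022), with array set as a term. In the platform annotation 34958 probe sets had 1 gene symbol, 932 several and 9211 none; names followed gene identifiers in GRCm38.p6, and 0 changed. A gene was represented by its tested probe set of highest mean signal. Figures used matplotlib 3.10.9.

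In emN1 and anN1 the replicate number equals the array set given in the series' design, so numbers pair these samples. Across probe sets, their replicate differences correlated with r = 0.38. Wild-type numbers mark no set. Members, lists and tests were chosen with earlier results of these data known. Named genes were the 8 members, up to 4 called genes of each list by size of change (otherwise the 2 of smallest p), and the 3 genes most like Acta2, Tagln, Cspg4 and Pdgfrb. Alternatives changed the addend, filter, variance model, scaling, background, array set term and arrays included.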

Additional observations from a re-analysis of the deposited data

Results flagged for a closer look

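Tagln stood out in 1 control array. With 4 controls, anN1 replicate 2 gave 2847 units and the other 3 lay between 2013 and 2067, so its gap to the nearest was 0.924 of the range on the log2 scale, above Dixon's 95% critical value. This was 1 of 17 probe sets looked at, and chance flags about 1 in 20. Without that array Tagln rose by 1.77 log2 units and passed (limma adjusted p = 0.00363).

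Probe sets for the bacteriophage Cre recombinase, which are array controls outside the comparisons, were higher in every emN1 and anN1 array than in the wild-type arrays. The lowest of the emN1 and anN1 signals was 395 units for AFFX-CreX-3_at (wild-type 62.4 and 79.0), 349 for AFFX-r2-P1-cre-3_at (wild-type 29.2 and 4.29) and 93.7 for AFFX-r2-P1-cre-5_at (wild-type 11.05 and 33.4), the last being under the background limit.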

How the results depend on the processing

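Between emN1 and controls, 124 values of single member probe sets were recomputed under the alternatives, and none changed direction: 103 kept their side of the threshold, 20 lost the call and 1 gained it. The dimmer Pdgfrb probe set and that of Rgs5 had no value in the upper 40% of probe sets. Over the whole table and among the 7 members, the 1020 and 5 calls were 0 and 0 without the intensity trend in the variance, 286 and 3 with no replicate block (no array set term), 288 and 3 with the replicate number as the block, and 185 and 3 in the second array set alone. Leaving out 1 array at a time gave 1 to 1092 and 0 to 5. For emN1 minus anN1 (545 and 4), they were 0 and 0 without the trend, 42 and 0 with no replicate block, and 0 to 1269 and 0 to 5 with 1 array left out. For emN1 minus wild-type (584 and 3), they were 0 and 0 without the trend, the table's count was 215 with no replicate block, the members' count was 5 in the upper 40% of probe sets, and leaving out 1 array gave 0 to 1375 and 0 to 5. For anN1 minus wild-type the table's 20 calls were 0 without the trend (1118 at an unadjusted p under 0.05), 42 with each array centred on its median, and 0 to 173 with 1 array left out. Where 1 array was left in a group, it was assumed to vary like the others. The cause of these changes was not tested.

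Some differences that had not passed changed sign. Rgs5 differed between anN1 and wild-type by 0.19 with signals raised to background and by -0.50 to 1.23 with 1 array left out, and between emN1 and wild-type by -0.25 to 1.49 with 1 array left out. The brighter Cspg4 probe set differed between anN1 and wild-type by -0.035 with no replicate block and by -0.038 to 0.23 with 1 array left out, and the dimmer Pdgfrb probe set by -0.016 to 1.41. Signal over background limits Cnn1, Myh11, Des and Rgs5.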
